A study of Mus musculus with 13 samples.

Results

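Toll-like receptors are pattern recognition receptors of innate immunity, and 10 genes of this system were followed here in the cuprizone model of demyelination, out of 55401 gene identifiers in the deposited table. The genes were taken by their symbol, and they fall into 3 surface receptors (Tlr1, Tlr2 and Tlr4), 4 endosomal receptors (Tlr3, Tlr7, Tlr9 and Tlr13) and 3 co-receptors (Cd14, Ly86 and Cd180). The libraries were bulk RNA-seq of a frozen brain hemisphere of male wild-type C57BL/6J mice, with 5 control (CTL), 4 cuprizone (CPZ) and 4 recovery (RCV) libraries. CPZ mice ate chow with 0.3% cuprizone, a copper chelator toxic to mature oligodendrocytes, for 4 weeks and were collected at week 4. RCV mice ate it for 4 weeks and plain chow for 2 more weeks, CTL mice ate plain chow, and both were collected at week 6, so that time of collection and cuprizone feeding cannot be told apart between CPZ and the other groups. The labels put the mice at 6 to 8 weeks of age. Their protocol text counts 4 CTL, 3 CPZ and 3 RCV mice, whereas the labels list, and the study describes, 13 samples sequenced in bulk (5, 4 and 4), all of which were used.

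Surface Toll-like receptors bind microbial lipids, lipoproteins and proteins, whereas endosomal ones bind nucleic acids that reach the endosome. All of them signal through the adaptors MyD88 or TRIF to NF-kappaB and interferon regulatory factors, and some respond to endogenous molecules released from damaged cells as well. In the healthy brain, microglia carry most members of the family, and astrocytes and endothelial cells can also transcribe Tlr3.

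At the end of cuprizone feeding, all 10 genes were higher than in CTL, beside 7.66% of the 14985 genes tested, by 1.56-fold for Tlr3 up to 13.2-fold for Cd180. No CPZ library overlapped a CTL library for any of the 10 genes, a pattern in the upward direction that 8.25% of all genes tested showed. After 2 weeks of recovery, Tlr2 and Cd14 were higher than in CTL (3.38-fold and 2.85-fold), that is 2 of 10 genes beside 0.36% of all genes tested. The other 8 genes did not pass the test, although 6 of these 8 also had all RCV libraries above all CTL libraries, which makes 8 of 10 beside 2.21% of all genes tested. Between CPZ and RCV, 8 of 10 genes were higher in CPZ, beside 5.13%, and all 10 had CPZ libraries above every RCV library, beside 8.26%. Tlr4 and Tlr9 missed the threshold in that comparison. The general microglial genes moved in the same direction in the same libraries, and in bulk tissue a change in the number of cells of a type and a change in RNA per cell cannot be told apart.

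The depth of the libraries ranged from 4605100 to 8197289 counts, and 6 of the 10 genes had fewer than 10 counts in at least 1 CTL library. Values are given as CPM (counts scaled to the depth of the library) within 1 gene and as TPM (scaled to transcript length as well) between genes. Of 15 general microglial markers, 15 passed the test with higher levels in CPZ than in CTL, with a median log2 fold change of 2.57 and a summed level of 416 to 500 CPM in CTL, 1534 to 3258 CPM in CPZ and 650 to 910 CPM in RCV. Of 8 oligodendrocyte markers, 8 were lower in CPZ than in CTL (median -1.54), and 0 were called in RCV against CTL. Astrocyte markers moved less, with 4 of 8 higher in CPZ and a median of 0.33, and 0 of 7 endothelial markers were called between CPZ and CTL. The astrocyte gene Aqp4 was higher in RCV than in CTL (log2 fold change 0.44, adjusted p = 0.0384) and the endothelial gene Cldn5 lower (-0.68, adjusted p = 0.0263), each as the only called marker of its list, and their part in the calls of Tlr2 and Cd14 was not tested. Of 11 markers of monocytes and neutrophils only Fn1, which other brain cells also express, had enough counts to be tested, and the monocyte receptor gene Ccr2 stayed at or below 0.770 CPM in every library. That list summed to 51.5 to 92.6 CPM in CTL, 102 to 219 CPM in CPZ and 59.4 to 96.6 CPM in RCV, with Ms4a4c and Camp at 0 in CTL and Ngp and Camp at 0 in CPZ. Most of each sum was Fn1, with a mean of 60.1 CPM in CTL, 174 in CPZ and 69.4 in RCV. Ms4a4c had a mean of 0.467 CPM in CPZ and 0.311 in RCV, on 0 to 7 counts in a CPZ library. Ccr2 went the other way, with means of 0.346 CPM in CTL, 0.170 in CPZ and 0.233 in RCV. Markers of B cells and plasmacytoid dendritic cells, which express Cd180, Tlr7 and Tlr9 outside the brain, summed to 0.680 to 2.25 CPM in CTL, 1.09 to 2.32 CPM in CPZ and 0.810 to 7.31 CPM in RCV, and none of the 8 had enough counts to be tested. The highest RCV sum was mostly Pax5, which reached 6.16 CPM. Of 6 markers of border macrophages, Mrc1 and F13a1 could be tested and neither was called in any comparison, and the list summed to 4.21 to 10.5 CPM in CTL, 6.46 to 11.5 CPM in CPZ and 4.86 to 11.9 CPM in RCV.

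**Figure D1:**
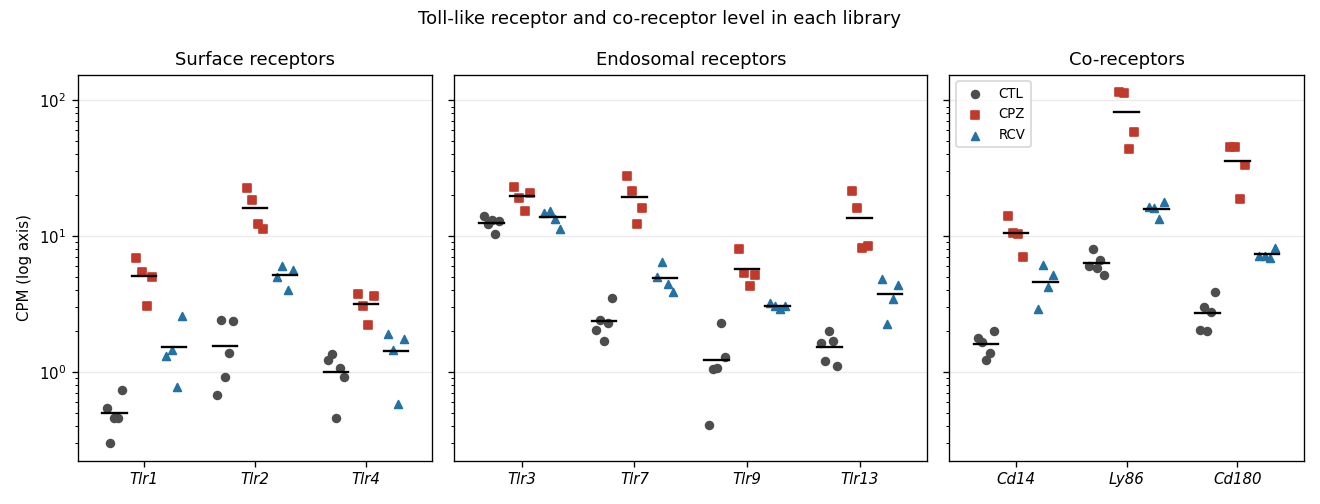
Level of each gene in each library in CPM on a log axis, by role. Each symbol is 1 library (circle CTL, square CPZ, triangle RCV) and each bar is the mean of a group. For all 10 genes the CPZ squares sit above the CTL circles, most closely for Tlr3.

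The co-receptors Ly86 and Cd180 had the largest changes between CPZ and CTL of the 10 genes. Ly86 encodes the secreted partner protein that CD180 needs at the cell surface, and it had 5.98, 8.10, 5.84, 6.73 and 5.13 CPM in the 5 CTL libraries. It had 115, 112, 44.1 and 58.0 CPM in the 4 CPZ libraries and 16.3, 16.2, 13.5 and 17.8 CPM in the 4 RCV libraries. Each group was separate from the others, and within CPZ the replicates 1 and 2 were about the same and well above replicates 3 and 4. Ly86 was higher in CPZ than in CTL with a log2 fold change of 3.68 ± 0.30 (SE, adjusted p = 5.4e-06, edgeR quasi-likelihood test) and higher than in RCV by 2.37 ± 0.29 (adjusted p = 0.00053). In RCV against CTL the log2 fold change was 1.32 ± 0.34 with an adjusted p of 0.209.

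Cd180 encodes a receptor with leucine-rich repeats like those of the Toll-like receptors but without their intracellular signalling domain, known as a regulator of TLR4 responses. Its level was 2.04, 3.00, 2.00, 2.75 and 3.85 CPM in CTL, 45.2, 45.1, 18.7 and 33.4 CPM in CPZ and 7.18, 7.13, 6.93 and 8.24 CPM in RCV. The RCV libraries were close to each other and lay between both other groups with no overlap. The log2 fold change was 3.72 ± 0.26 in CPZ against CTL (adjusted p = 6.5e-07), 2.28 ± 0.25 in CPZ against RCV (adjusted p = 0.00025) and 1.44 ± 0.31 in RCV against CTL, where the adjusted p of 0.0744 missed the threshold. Exons of Cd180 (GRCm38 chromosome 13, 102693558 to 102739629, plus strand) overlap exons of Mast4 on the other strand, and whether counting used the strand is not given in the sources used here. Mast4 itself had 95.7 to 113 CPM in CTL, 67.4 to 87.5 CPM in CPZ and 78.9 to 120 CPM in RCV.

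Cd14 encodes the lipid-anchored protein that hands bacterial lipopolysaccharide to TLR4 and lipoproteins to TLR2. It was measured at 1.77, 1.65, 1.23, 1.38 and 2.02 CPM in CTL, at 14.1, 10.6, 10.4 and 6.97 CPM in CPZ and at 2.93, 6.16, 4.23 and 5.20 CPM in RCV. The 3 groups did not overlap, and RCV replicate 2 came near the lowest CPZ library. Cd14 was called in all 3 comparisons, with log2 fold changes of 2.70 ± 0.25 in CPZ against CTL (adjusted p = 2.5e-06), 1.19 ± 0.24 in CPZ against RCV (adjusted p = 0.0060) and 1.51 ± 0.28 in RCV against CTL (adjusted p = 0.0284). The last call was lost when any 1 of the 5 CTL libraries, RCV replicate 2 or RCV replicate 4 was left out (adjusted p 0.0547 to 0.150), while the log2 fold change stayed between 1.33 and 1.69 over all 13 such fits.

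Among the surface receptors, Tlr2, the receptor for lipoproteins that works as a dimer with TLR1 or TLR6, had the highest counts. Its level was 0.680, 2.40, 0.922, 1.38 and 2.38 CPM in CTL, 22.8, 18.6, 12.3 and 11.2 CPM in CPZ and 4.98, 5.99, 4.04 and 5.64 CPM in RCV. Relative to the mean of their group, CTL libraries differed more among themselves than RCV libraries did, and the 3 groups did not overlap. The log2 fold change was 3.40 ± 0.30 in CPZ against CTL (adjusted p = 2.0e-06), 1.65 ± 0.28 in CPZ against RCV (adjusted p = 0.0019) and 1.76 ± 0.35 in RCV against CTL (adjusted p = 0.0407). The RCV call was lost when CTL replicate 1, 3, 4 or 5, CPZ replicate 2 or any 1 of the 4 RCV libraries was left out (adjusted p 0.0513 to 0.182), while the log2 fold change stayed between 1.55 and 1.99 over all 13 fits with 1 library left out.

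Tlr1 encodes the partner of TLR2 for triacylated lipoproteins, and it was the least abundant of the 10 genes in CTL, with 2 to 4 estimated counts per library. In CPM it had 0.544, 0.300, 0.461, 0.459 and 0.734 in CTL, 6.91, 5.47, 3.05 and 5.04 in CPZ and 1.32, 1.46, 0.770 and 2.60 in RCV. All RCV libraries were above all CTL libraries by a small margin, and all CPZ libraries were above both. Tlr1 was higher in CPZ than in CTL (log2 fold change 3.33 ± 0.36, adjusted p = 9.0e-06) and than in RCV (1.75 ± 0.33, adjusted p = 0.0036), and RCV against CTL gave 1.57 ± 0.43 with an adjusted p of 0.207. Some counts of Tlr1 and the neighbouring, similar gene Tlr6 were not whole, so that reads were shared between them by estimation, and the split is uncertain. Summed over both genes, CTL libraries had 4 to 9 counts, CPZ libraries 35 to 69 and RCV libraries 7 to 17, with a log2 fold change of 2.71 in CPZ against CTL, still called, and of 0.89 in RCV against CTL, not called.

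Tlr4 encodes the receptor for lipopolysaccharide. It had 1.22, 1.35, 0.461, 1.07 and 0.917 CPM in CTL, 3.75, 3.04, 2.22 and 3.62 CPM in CPZ and 1.91, 1.46, 0.577 and 1.73 CPM in RCV. CPZ libraries were above all others, whereas the RCV libraries were spread over and beyond the CTL range. The log2 fold change was 1.62 ± 0.33 in CPZ against CTL (adjusted p = 0.0029), 0.50 ± 0.38 in RCV against CTL (adjusted p = 0.962) and 1.13 ± 0.34 in CPZ against RCV (adjusted p = 0.0579). In TPM the rise in CPZ did not pass the test (adjusted p = 0.202, 0.243 and 0.292 in 3 limma fits), and the TPM of Tlr4 varied from 0.230 to 2.27 within CTL.

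The 250 bases before the transcription start in RefSeq (GRCm38.p6) were read for 7 of the 10 genes and searched on both strands for 4 motifs of factors that act in macrophages or downstream of Toll-like receptors. The RefSeq starts did not always match the gene positions of GENCODE. The windows of Tlr3 and of the other Tlr1 start lie wholly inside the GENCODE gene. Those of Tlr2, Tlr13, Ly86 and, by a few bases, the Tlr1 start shown lie partly inside it. The 2 surface receptor promoters with a match are shown in lower case with the match in capitals, which is the PU.1 core GAGGAA at -23 to -18 from the start in Tlr1 (chr5:64933559-64933808, minus strand, the other RefSeq start of this gene having no match) and the kappaB consensus at -173 to -163 in Tlr2 (chr3:83841609-83841858, minus strand), where matches overlap on both strands.
Tlr1: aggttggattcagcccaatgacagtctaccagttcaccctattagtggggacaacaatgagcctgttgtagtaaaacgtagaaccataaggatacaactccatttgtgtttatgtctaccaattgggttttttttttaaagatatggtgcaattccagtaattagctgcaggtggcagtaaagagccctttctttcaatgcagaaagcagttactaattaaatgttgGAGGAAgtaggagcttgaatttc
Tlr2: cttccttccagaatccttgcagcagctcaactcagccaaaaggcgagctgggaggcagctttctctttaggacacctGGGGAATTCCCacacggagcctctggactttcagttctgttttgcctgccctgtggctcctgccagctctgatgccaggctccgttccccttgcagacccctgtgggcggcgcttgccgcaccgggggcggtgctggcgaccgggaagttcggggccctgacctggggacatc

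Among the endosomal receptors, Tlr7, Tlr9 and Tlr13 moved by several fold and Tlr3 moved little. Tlr7 encodes a receptor for single-stranded RNA, and had 2.04, 2.40, 1.69, 2.29 and 3.48 CPM in CTL, 27.7, 21.6, 12.3 and 16.0 CPM in CPZ and 4.98, 6.48, 4.43 and 3.90 CPM in RCV. No group overlapped another, with CTL replicate 5 close to the lowest RCV library. The log2 fold change was 3.04 ± 0.25 in CPZ against CTL (adjusted p = 1.1e-06), 1.95 ± 0.25 in CPZ against RCV (adjusted p = 0.00034) and 1.08 ± 0.29 in RCV against CTL (adjusted p = 0.194).

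Tlr13 is a receptor for bacterial ribosomal RNA that humans lack. Its level was 1.63, 1.20, 2.00, 1.68 and 1.10 CPM in CTL, 21.5, 16.0, 8.19 and 8.52 CPM in CPZ and 4.84, 2.27, 3.46 and 4.34 CPM in RCV. Groups did not overlap, and CPZ replicates 3 and 4 were well below replicates 1 and 2, as for Ly86. The log2 fold change was 3.13 ± 0.33 in CPZ against CTL (adjusted p = 9.3e-06), 1.86 ± 0.32 in CPZ against RCV (adjusted p = 0.0020) and 1.27 ± 0.38 in RCV against CTL (adjusted p = 0.323).

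Tlr9, a receptor for DNA with unmethylated CpG, had 0.408, 1.05, 1.08, 2.29 and 1.28 CPM in CTL, 8.07, 5.35, 4.30 and 5.16 CPM in CPZ and 3.23, 3.08, 2.89 and 3.04 CPM in RCV. The RCV libraries lay within a narrow range, above the highest CTL library and below the lowest CPZ library. Tlr9 was higher in CPZ than in CTL (log2 fold change 2.22 ± 0.32, adjusted p = 0.00013), and the other comparisons did not pass the test, with 1.33 ± 0.35 in RCV against CTL (adjusted p = 0.169) and 0.89 ± 0.30 in CPZ against RCV (adjusted p = 0.0988).

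Tlr3 is the receptor for double-stranded RNA and signals through TRIF alone. It had 14.1, 12.3, 13.1, 10.4 and 12.8 CPM in CTL, 22.9, 19.2, 15.4 and 20.9 CPM in CPZ and 14.8, 15.4, 13.5 and 11.3 CPM in RCV. RCV overlapped CTL, and CPZ replicate 3 was hardly above RCV replicate 2. Tlr3 was higher in CPZ than in CTL by a log2 fold change of 0.64 ± 0.13 (adjusted p = 0.0028), and RCV against CTL gave 0.14 ± 0.14 (adjusted p = 0.978). The difference between CPZ and RCV, 0.50 ± 0.14 with an adjusted p of 0.0347, was lost when CPZ replicate 1, 2 or 4 or RCV replicate 1, 3 or 4 was left out (adjusted p 0.0623 to 0.120), with a log2 fold change of 0.43 to 0.61 over all 13 such fits. The antisense gene Gm45542, which overlaps exons of Tlr3, had 0 or 1 counts in every library.

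The promoters of the endosomal receptors with a match are those of Tlr3 (chr8:45410381-45410630, minus strand), with the kappaB consensus at -211 to -202, and of Tlr9 (chr9:106222348-106222597, plus strand) and Tlr13 (chrX:106143025-106143274, plus strand), with the PU.1 core GAGGAA at -112 to -107 and -83 to -78. GENCODE places Tlr3 at chr8:45395665-45411080, so the Tlr3 match lies upstream of the RefSeq start used but not of the GENCODE start.
Tlr3: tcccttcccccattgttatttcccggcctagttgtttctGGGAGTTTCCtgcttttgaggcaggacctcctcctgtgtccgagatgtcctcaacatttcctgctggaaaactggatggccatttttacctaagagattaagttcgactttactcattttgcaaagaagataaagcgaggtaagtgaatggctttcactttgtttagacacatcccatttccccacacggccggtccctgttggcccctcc
Tlr9: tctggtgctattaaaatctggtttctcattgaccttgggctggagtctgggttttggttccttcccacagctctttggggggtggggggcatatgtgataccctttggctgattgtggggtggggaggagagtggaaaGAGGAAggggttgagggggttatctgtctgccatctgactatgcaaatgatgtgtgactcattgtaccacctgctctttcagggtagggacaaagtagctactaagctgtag
Tlr13: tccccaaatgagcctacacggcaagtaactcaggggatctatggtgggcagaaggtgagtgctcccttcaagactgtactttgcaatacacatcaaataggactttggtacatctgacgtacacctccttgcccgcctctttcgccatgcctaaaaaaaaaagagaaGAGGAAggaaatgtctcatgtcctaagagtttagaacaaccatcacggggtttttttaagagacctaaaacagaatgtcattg

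Across the 7 genes with a promoter in the table, the PU.1 core was found in 3 (Tlr1, Tlr9 and Tlr13), and 23.3% of 32851 promoters of the same length hold it. A gene was counted if any of its RefSeq starts had a match, and Tlr1 and Cd180 each have another start. The shares of all promoters count single starts instead, so the units differ. The kappaB consensus was found in 2 (Tlr2 and Tlr3), against 7.25% of all promoters. The ISRE core GAAANNGAA and the ETS-IRF composite core GGAANNGAA, which can share letters with the PU.1 core, were found in 0 of 7, against 7.13% and 6.99% of all promoters. Ly86 and Cd180, the genes with the largest rise, held none of the 4 motifs in this window, and Tlr4, Tlr7 and Cd14 were not among the 7 genes.

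**Figure D2:**
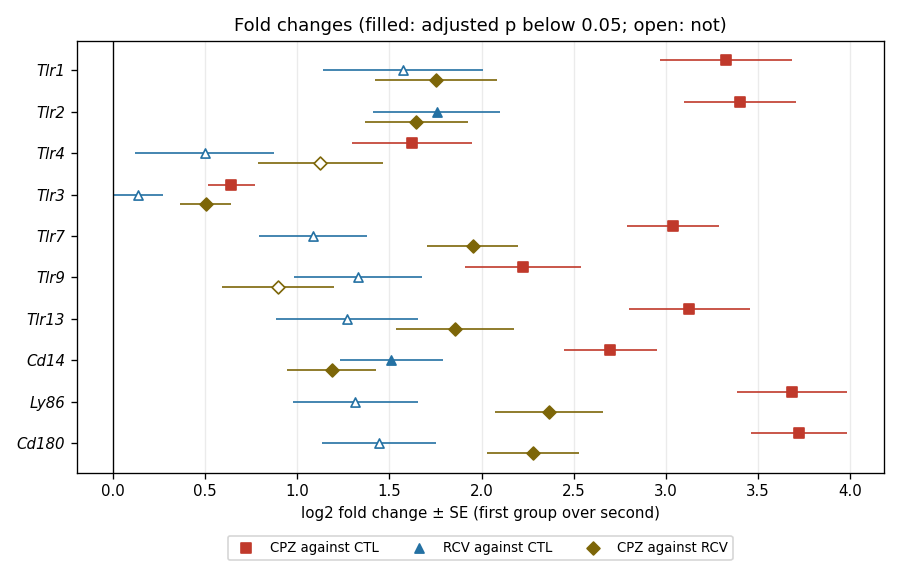
Log2 fold change of each gene with its standard error, for CPZ against CTL (squares), RCV against CTL (triangles) and CPZ against RCV (diamonds). Filled symbols have an adjusted p below the threshold of 0.05. All 10 squares are filled, 2 triangles (Tlr2 and Cd14) and 8 diamonds.

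In CPZ against CTL, the median log2 fold change of the 10 genes was 3.08, against -0.02 over all genes tested. Tlr1 and Tlr4 reached the count filter (1.49 CPM in at least 4 libraries) only through the CPZ libraries, so that the filter itself selected them for being high there. Tlr2, Tlr9, Tlr13 and Cd14 reached it through CPZ and RCV but not CTL, and Tlr3, Tlr7, Ly86 and Cd180 were above it in all libraries. Without any filter on counts, 10 of 10 were called as well.

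In RCV against CTL, which shares its CTL libraries with the comparison above, 2 of 10 genes were called higher, beside 0.36% of all genes tested. The median log2 fold change was 1.32, from 0.14 for Tlr3 to 1.76 for Tlr2, and the number of calls varied from 0 with limma-voom to 5 with DESeq2, which added Tlr9, Ly86 and Cd180. Of the 15 microglial markers, only Ctss was called in this comparison, with a median log2 fold change of 0.84 for the list.

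In CPZ against RCV, which shares the CPZ libraries with the first of these comparisons, the median log2 fold change was 1.70 (all genes -0.01), with the largest values for Ly86 and Cd180. All 15 microglial markers were called in the same direction, with a median of 1.69.

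Compared per transcript length, Ly86 stood apart from the other genes in every group. In CTL it had 12.9 ± 2.07 TPM (SD, n = 5), followed by Tlr3 with 7.72 ± 1.04 TPM, and each of these was separate from the next gene over all libraries. The other genes of CTL formed a continuous order from Cd180 (2.40 ± 0.573 TPM), Cd14 (2.21 ± 0.449 TPM) and Tlr7 (1.61 ± 0.619 TPM) through Tlr2, Tlr4, Tlr13 and Tlr9 to Tlr1 (0.380 ± 0.130 TPM), in which neighbours overlapped.

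In CPZ the order changed, as Ly86 reached 167 ± 74.6 TPM (SD, n = 4) and Cd180 30.5 ± 9.64 TPM. Tlr3, with 13.6 ± 0.760 TPM, no longer differed beyond the spread from Cd14 (14.4 ± 3.80 TPM), Tlr2 (11.3 ± 3.85 TPM) or Tlr7 (11.2 ± 4.07 TPM). Tlr13, Tlr1, Tlr9 and Tlr4 followed with means from 6.87 down to 2.42 TPM, each overlapping its neighbour.

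In RCV, Ly86 had 31.7 ± 4.84 TPM (SD, n = 4). It was followed by Tlr3 (9.99 ± 2.91 TPM), Cd14 (6.55 ± 1.82 TPM) and Cd180 (6.44 ± 1.12 TPM), which overlapped, and then by a gap to Tlr2 (3.59 ± 0.619 TPM). Tlr1 (1.16 ± 0.597 TPM) and Tlr4 (1.20 ± 1.07 TPM) had the lowest means. Summed by role, the 3 co-receptors held 17.5 ± 2.15 TPM in CTL, 212 ± 86.1 TPM in CPZ and 44.7 ± 6.10 TPM in RCV, mostly through Ly86. The 4 endosomal receptors summed to 10.9 ± 1.28, 35.0 ± 8.63 and 16.5 ± 3.16 TPM, and the 3 surface receptors to 2.50 ± 0.916, 17.7 ± 5.31 and 5.94 ± 2.11 TPM.

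**Figure D3:**
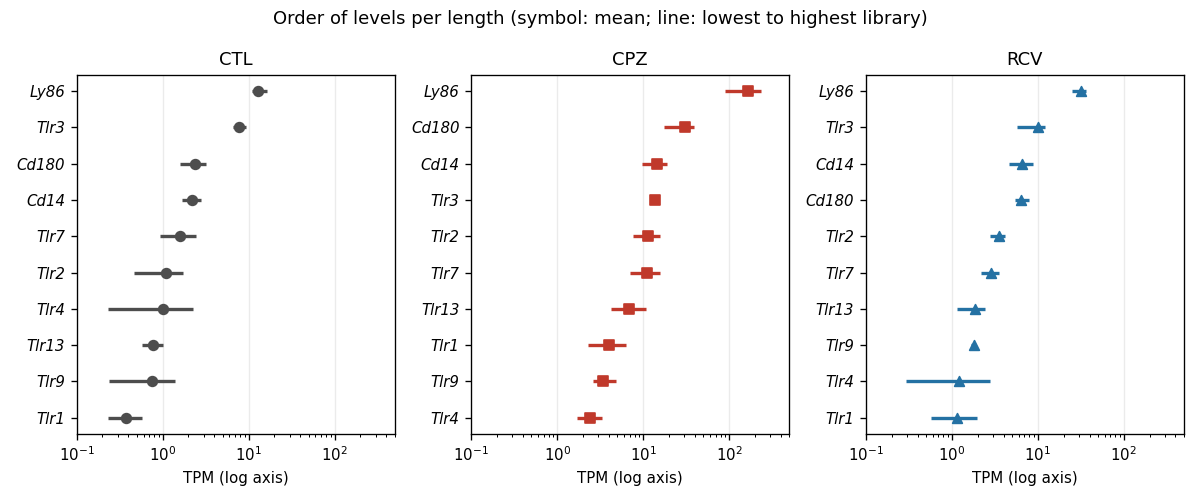
Genes ordered by mean TPM in each group, on a log axis, with the symbol at the mean and the line from the lowest to the highest library. Ly86 leads in CTL, CPZ and RCV, and Tlr3 is the next gene in CTL and RCV but the fourth in CPZ.

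Since microglial genes rose in the same libraries, each gene was also expressed as its log2-CPM minus the mean log2-CPM of the 15 general microglial markers of the same library. That mean was 4.17 ± 0.09 in CTL (SD, n = 5), 6.67 ± 0.52 in CPZ and 5.05 ± 0.21 in RCV (n = 4 each). A value that does not differ between groups means that the gene moved by the same amount as the mean of these markers. Overlap of 4 against 5 libraries does not show an equal change, and the prior count of 2 in log2-CPM shrinks changes of genes with few counts. Tlr1, with 2 to 4 counts in CTL, differed by only 0.22 in CPZ against CTL, although its log2 fold change was 3.33. Over all genes, most of which are not microglial, 96.9% of CPZ against CTL, 77.8% of RCV against CTL and 90.7% of CPZ against RCV comparisons showed no overlap on this measure in either direction, so that an overlap, not its absence, is the less common outcome. For the 10 genes, 3, 2 and 4 showed no overlap in the 3 comparisons.

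Relative to the microglial markers, Ly86 lay at -1.50, -1.22, -1.50, -1.40 and -1.62 in CTL, at -0.34, -0.19, -0.58 and -0.59 in CPZ and at -0.96, -1.17, -0.99 and -1.04 in RCV. It exceeded the mean change of these markers by 1.02 log2 units in CPZ against CTL (exact two-sided permutation p = 0.0159, the smallest that 4 against 5 libraries allow), by 0.41 in RCV against CTL (exact p = 0.0159) and by 0.61 in CPZ against RCV (exact p = 0.0286, the smallest for 4 against 4). For the 10 genes 30 such tests were run, and their p are not adjusted. Cd180 exceeded the markers by 1.01 in CPZ against CTL (exact p = 0.0159) and by 0.53 in CPZ against RCV (exact p = 0.0286), whereas in RCV against CTL its excess of 0.49 came with overlapping libraries (exact p = 0.0635).

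Tlr3 went the other way. It lay at -0.30, -0.64, -0.38, -0.79 and -0.34 in CTL, at -2.64, -2.72, -2.08 and -2.04 in CPZ and at -1.09, -1.24, -0.99 and -1.68 in RCV. The change of Tlr3 was less than the mean change of the microglial markers by 1.88 log2 units in CPZ against CTL (difference -1.88, exact p = 0.0159), with -0.76 in RCV against CTL (exact p = 0.0159) and -1.12 in CPZ against RCV (exact p = 0.0286). Tlr9 did not overlap in CPZ against RCV (difference -0.81, exact p = 0.0286) and overlapped in the other comparisons. With 10 homeostatic microglial genes as the reference, which rose less in CPZ than the general markers, the Tlr3 difference was -0.77 in CPZ against CTL, -0.13 in RCV against CTL (exact p = 0.413) and -0.63 in CPZ against RCV. With the same reference the excess of Ly86 was 2.14, 1.04 and 1.10 in these comparisons, and that of Cd180 was 2.13 in CPZ against CTL and 1.02 in CPZ against RCV, so that the size of these differences depended on the reference by more than 1.5 times while their direction did not.

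The remaining genes overlapped between groups on this measure. In CPZ against CTL their differences ran from -1.08 for Tlr4 (exact p = 0.0317) to 0.71 for Tlr2 (exact p = 0.111), and for 6 of these 7 genes, all but Tlr2, the sign changed under at least 1 alternative reference, scale or set of libraries. For 5 of the 8 genes that overlapped in RCV against CTL the sign changed in this way. Tlr2 (0.78, exact p = 0.0476), Cd14 (0.45, exact p = 0.0635) and Cd180 kept theirs in all 13 alternatives. In CPZ against RCV 4 of 6 changed sign, and Tlr4 (-0.56, exact p = 0.114) and Tlr7 (0.25, exact p = 0.0857) kept theirs. Ly86, Cd180 and Tlr3 kept their sign in every alternative run for all 3 comparisons.

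**Figure D4:**
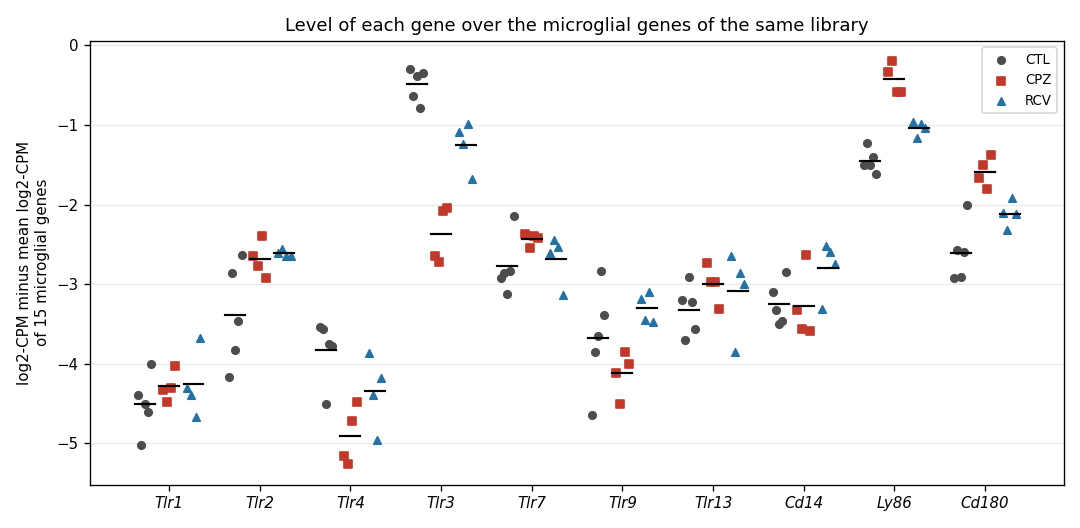
Log2-CPM of each gene minus the mean log2-CPM of 15 microglial genes in the same library. Each symbol is 1 library (circle CTL, square CPZ, triangle RCV) and bars are group means. Ly86 and Cd180 shift upward in CPZ, Tlr3 shifts downward, and the other genes overlap between CTL and CPZ.

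For each receptor, the 3 genes whose log2-CPM followed it most closely over the 13 libraries were found. As the libraries fall into 3 groups and share those groups, Pearson's r is given over all libraries and, in second place, after removing the group means, as a description. Ly86 went with Csf1r (r = 0.998 and 0.977), C1qc and C1qb, that is with the receptor on which microglia depend for survival and with complement components. Cd180 went with Hpgds (0.993 and 0.892), Mpeg1 and Fcgr3, Tlr7 with Anxa3 (0.987 and 0.811), Runx1 and Cd180, and Tlr1 with Ccl6 (0.986 and 0.925), Trem2 and Mpeg1. Tlr2 went with the chemokine gene Ccl3 (0.983 and 0.832), Ptprc and Naip2, Cd14 with Ptprc (0.980 and 0.733), Ggta1 and AU020206, and Tlr13 with Siglec1 (0.972 and 0.724), Fcer1g and Lyn.

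The remaining receptors had the lowest r over all libraries with their nearest gene, but not after removing the group means. Their nearest genes were Naip2 for Tlr9 (0.963 and 0.828), followed by Hvcn1 and Lag3, Wipf1 for Tlr3 (0.952 and 0.893), followed by Blnk and Bmp2k, and Fam111a for Tlr4 (0.948 and 0.824), followed by Lsp1 and Siglech. Among the 10 genes themselves, the pair with the highest r was Tlr7 and Cd180 (0.985 and 0.798) and the pair with the lowest was Tlr3 and Tlr9 (0.644 and -0.167).

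Beyond the 10 genes, 8 further receptors and co-receptors were listed, and only Lbp and Cd36 had enough counts to be tested. Neither was called, with log2 fold changes of -0.07 and -0.11 in CPZ against CTL. Tlr6 had a mean of 0.593 CPM in CTL, 2.07 in CPZ and 0.478 in RCV, and Tlr12 0.579, 1.74 and 1.19 CPM. Ly96, which encodes the subunit through which TLR4 binds lipopolysaccharide, had 0.513, 0.972 and 0.412 CPM, and Tlr5, Tlr8 and Tlr11 also stayed below 1 CPM on average in every group.

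A further list held genes whose products fold, move and cut the endosomal receptors. Of 15 such genes tested, 10 were higher in CPZ than in CTL and 0 lower (median log2 fold change 1.11), 9 were higher than in RCV, and only Ctss was called in RCV against CTL. Over all genes tested, 7.66% were higher in CPZ than in CTL, 5.13% in CPZ than in RCV and 0.36% in RCV than in CTL. Unc93b1, the chaperone that carries nucleic acid receptors from the endoplasmic reticulum to endosomes, had 11.4 to 14.3 CPM in CTL, 33.4 to 74.5 in CPZ and 18.9 to 24.9 in RCV, with a log2 fold change of 2.06 ± 0.19 in CPZ against CTL (adjusted p = 7.5e-06). Slc15a3, an endolysosomal transporter, rose by 2.96 ± 0.29, the lysosomal protease gene Ctss by 2.65 ± 0.21 and Pld4, a nuclease that degrades ligands of TLR9, by 2.10 ± 0.19. Ctss is also among the 15 microglial markers, and Rnaset2a and Rnaset2b, both called, are near-identical copies whose counts may be split wrongly. The 5 genes that did not pass the test were the chaperone genes Hsp90b1 (0.12 ± 0.08) and Cnpy3 (-0.03 ± 0.07), Lrrc59 (0.18 ± 0.06), Slc15a4 (-0.15 ± 0.09) and Pld3 (-0.11 ± 0.10).

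Of 21 adaptors and kinases of the pathway, 5 were higher in CPZ than in CTL, beside 7.66% of all genes tested. The median log2 fold change over the list was 0.16. Ticam2, the adaptor that links TLR4 to TRIF, had 0.367 to 1.05 CPM in CTL and 4.13 to 6.34 in CPZ (log2 fold change 2.88 ± 0.31), and Pik3ap1, an adaptor to PI3-kinase, 3.36 to 4.92 and 12.1 to 33.6 CPM (2.44 ± 0.28). Ticam2 reached the count filter only with the help of the CPZ libraries. Irak4 (0.93 ± 0.22), Myd88 (0.72 ± 0.17) and Tab2 (0.18 ± 0.05) moved less, and Myd88, used by all family members except TLR3, had 3.85 to 5.71 CPM in CTL and 7.23 to 8.93 in CPZ. The TRIF gene Ticam1 had 0.60 ± 0.21 with an adjusted p of 0.083. In RCV against CTL 0 of 21 were called, and in CPZ against RCV 3 were (Ticam2, Pik3ap1 and Myd88), beside 5.13% of all genes tested.

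Of 10 transcription factors that act downstream, 6 were higher in CPZ than in CTL, 0 in RCV than in CTL and 4 in CPZ than in RCV. Over all genes tested these shares were 7.66%, 0.36% and 5.13%. Of the 5 interferon regulatory factors, Irf8 (2.77 ± 0.20, with 4.62 to 7.35 CPM in CTL and 27.3 to 49.7 in CPZ), Irf7 (2.03 ± 0.24) and Irf5 (1.78 ± 0.19) were called in CPZ against CTL. Irf1 (0.62 ± 0.22, adjusted p = 0.0849) and Irf3 (0.08 ± 0.09, adjusted p = 0.726) were not. Irf8 is also a lineage factor of microglia. Of the NF-kappaB subunits, Nfkb2 (1.33 ± 0.26), Rel (0.62 ± 0.16) and Nfkb1 (0.57 ± 0.09) were called, and Rela (0.34 ± 0.12, adjusted p = 0.0932) and Relb (0.64 ± 0.24, adjusted p = 0.115) were not.

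Of 18 negative regulators, 13 could be tested, and Trim30a (2.83 ± 0.20) and Socs3 (1.75 ± 0.28) were higher in CPZ than in CTL and than in RCV. That is 2 of 13, beside 7.66% and 5.13% of all genes tested. The other 11 had log2 fold changes between -0.15 (Sarm1) and 0.55 (Tnfaip3) without passing the test, and 0 of 13 were called in RCV against CTL. Of 16 genes that Toll-like receptors can induce, 6 could be tested. Of these, 4 were higher in CPZ than in CTL and than in RCV, beside 7.66% and 5.13% of all genes tested. Ccl3 had 0 to 0.600 CPM in CTL, 4.99 to 16.7 in CPZ and 1.35 to 2.49 in RCV, Cxcl10 had 0 to 0.750, 4.91 to 10.2 and 1.15 to 2.05 CPM, and Ccl4 had 0 to 0.183, 2.07 to 3.17 and 0.434 to 1.03 CPM. Il1a had 0.300 to 0.680 CPM in CTL and 2.91 to 4.61 in CPZ. Without the CPZ libraries these 4 genes would not have reached the count filter, so the filter itself selected them for being high there. Ptgs2 (-0.01 ± 0.27) and Nfkbiz (0.65 ± 0.22, adjusted p = 0.0712) were tested and not called in CPZ against CTL. Tnf and Il1b had too few counts to be tested, with at most 5 and 10 counts in a library, and Il12b, Il10 and Ifnb1 had 0 counts in every library.

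Of 9 tested endogenous ligands, Lgals3 (2.96 ± 0.45) and Fn1 (1.53 ± 0.23) were higher in CPZ than in CTL and Fn1 also than in RCV, and 0 were called in RCV against CTL. The 2 of 9 in CPZ against CTL stand beside 7.66% of all genes tested, and the 1 of 9 in CPZ against RCV beside 5.13%. Hmgb1, a nuclear protein that can engage TLR2 and TLR4 when released, had 0.05 ± 0.06 in CPZ against CTL. These lists were assembled with earlier results of the same data known. General microglial markers moved in the same libraries (15 of 15 called), and their part in these differences was not tested.

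**Figure D5:**
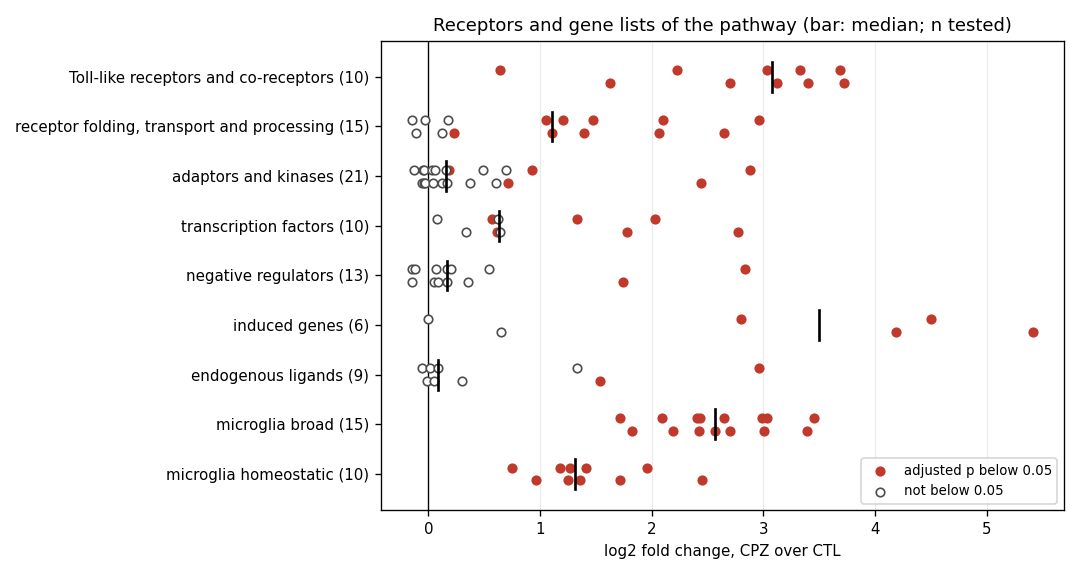
Log2 fold change of CPZ over CTL for the 10 genes and for lists of the pathway, with the number of genes tested in parentheses, filled where the adjusted p is below 0.05 and with a bar at the median. The induced genes (median 3.50, 6 tested), the receptors (3.08) and the general microglial genes (2.57) lie to the right, and the median of adaptors and kinases (0.16) is near 0. Of 16 induced genes listed, the 4 called ones reached the count filter only with the help of the CPZ libraries. The filter itself thus favours a high median for that list, which cannot be ranked against the others.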

How the data were processed

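Bulk RNA-seq of 13 brain hemispheres was analysed, 1 library per sample. The authors prepared poly-A libraries with the Kapa mRNA HyperPrep Kit, and the submitters' processing notes name STAR, RSEM and the build mm10, without versions or settings. The authors deposited an estimated count per gene, not scaled to depth, and its TPM (corrected for transcript length and depth). Of the estimated counts, 4.45% were not whole, and all were rounded. The 92 spike-in rows held 0 counts and were left out.

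Groups came from the sample labels, in which titles of RCV libraries begin with "Veh". For the main test, 1 quasi-likelihood fit (edgeR 4.0.16, robust option, R 4.3.3) held all libraries, TMM factors and no covariates, after filterByExpr with the groups. P values were adjusted by Benjamini-Hochberg over the 14985 genes tested, with a threshold of 0.05. CPM used TMM-scaled library sizes, and log2-CPM a prior count of 2. Gene positions are from GENCODE M21 (GRCm38), which matched 98.1% of identifiers. Promoters are from RefSeq (GRCm38.p6). Alternatives were DESeq2 1.42.0 (its size factors and its Wald test), limma 3.58.1 (voom, and log2 TPM with 1 or 0.1 added, for genes that reach a TPM of 1 in 4 libraries, or unfiltered), no count filter, at least 10 counts in every library, only the groups compared, the replicate number as a block, each library left out in turn and, for levels over microglial genes, a homeostatic reference. Summing Tlr1 with Tlr6 and a prior count of 0.25 were chosen after seeing the data. The edgeR steps were tested on simulated counts.

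The genes followed, the pathway and marker lists and the motifs were chosen with earlier results of these data known. Named were all 10 genes, up to 3 called genes per list with the largest change and genes of a count that is broken down, and for each of the 10 the 3 genes with the highest r where the average log2-CPM reached 1. Ccr2, Tlr6, Tlr12, Ly96, Mast4, Gm45542, Ticam1, Sarm1, Tnfaip3, Hmgb1, Tnf and Il1b were named after their values were seen, as background. Nothing states that samples came from separate cages or preparation batches, and p-values measure the spread between these libraries.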

Additional observations from a re-analysis of the deposited data

Results flagged for a closer look

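Of 60 groups of 4 or 5 libraries examined (log2-CPM and level over microglial genes, for 10 genes in 3 groups), 1 had a library far from the others. In CTL replicate 3, Tlr4 lay at -4.50 log2 units relative to the microglial genes, against -3.77 to -3.54 in the other 4 CTL libraries. It rests on 3 counts in that library against 5 to 9 in the others, and chance flags about 1 in 20 groups.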

How the results depend on the processing

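All 10 genes stayed higher in CPZ than in CTL under every alternative on counts that could test them, with 4 of 4 called where at least 10 counts were required in every library, which only 4 of the genes met, and 9 of 10 on TPM, where Tlr4 was lost. Leaving out 1 library gave 10 calls each time (range 10 to 10). In RCV against CTL the 2 calls became 0 with at least 10 counts in every library, 0 with limma-voom, 0 on log2(TPM + 1) without a filter, 4 with only the 2 groups compared and 5 with DESeq2, and ranged from 0 to 4 without 1 library. On filtered TPM there were also 2 calls, but Tlr2 was lost (adjusted p = 0.0883 and 0.0717 with 1 and 0.1 added) and Cd180 gained (0.0456 and 0.0282). In CPZ against RCV the 8 calls became 4 with at least 10 counts in every library and ranged from 7 to 9 without 1 library. On TPM, Tlr3 was lost in that comparison (adjusted p = 0.248 and 0.258 with 1 and 0.1 added, 0.366 unfiltered, limma). Tlr1 was lost there with 0.1 added only (adjusted p = 0.0541). The causes were not tested, apart from the smaller number of genes left by the count minimum. Over all genes, calls in RCV against CTL went from 56 to 12 with limma-voom, 20 with the count minimum, 131 with DESeq2 and 22 on unfiltered TPM, and those in CPZ against CTL and CPZ against RCV from 1522 and 1050 to 992 and 487 on unfiltered TPM.

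The number of genes that did not overlap relative to microglial genes was 3 in CPZ against CTL, 8 with the homeostatic reference and 6 on log2(TPM + 1), and 3 to 4 without 1 library. In RCV against CTL it was 2, 5 with the homeostatic reference and 0 on log2(TPM + 1), and 2 to 4 without 1 library. In CPZ against RCV it was 4, 2 on log2(TPM + 1), and 4 to 5 without 1 library.

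Samples with the same replicate number did not deviate together (correlations from -0.21 to 0.16). With the replicate block, 10 genes were called in CPZ against CTL, 2 in RCV against CTL and 8 in CPZ against RCV, as without it, and over all genes 1172, 42 and 755. With the block Cd14 was not called in RCV against CTL (adjusted p = 0.0917) while Cd180 was (adjusted p = 0.0362), Tlr3 was not called in CPZ against RCV (adjusted p = 0.0518) and Tlr4 was (adjusted p = 0.0377). Depth limits Tlr1, Tlr4, Tlr9 and Tlr2 most, with as few as 2, 3, 3 and 5 counts in a CTL library.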
